A study of Mus musculus with 6 samples.

Results

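The genes described here were picked as genes that mouse embryonic stem cells (ESCs) express less once leukemia inhibitory factor (LIF) is removed: Mymx, Septin1, Gjb1, Fam25c, Dlgap3, Pltp, Mt4, Nphs1 and Polr3gl. They were taken by symbol, 9 of the 25170 symbols in the deposited table, and had been picked because they were much lower after LIF removal in these same libraries. The difference on LIF removal is therefore given as a description without a test, and only genotype, neighbouring genes and related genes were tested. All 9 had a mean of at least 1 FPKM (a level per transcript length and per sequenced library) over the 6 libraries, as did 11785 genes in all. The choice had no numeric threshold.

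The libraries come from E14, an established mouse ESC line, and from Hnrnpf knockout (KO) cells of that line. There were 2 knockout libraries and 1 wild type (WT) library grown for 4 days after LIF withdrawal, and 2 knockout libraries and 1 wild type library kept in serum medium with LIF. Knockout libraries are called 1 and 2 by their label. The labels use the same numbers in both media without stating that a number marks one clone, and do not say whether the libraries are separate cultures, so p-values measure only the spread between these libraries. Hnrnpf, an RNA-binding splicing factor, stood at 95.2 and 27.8 FPKM in knockout cells and 335 in wild type cells after LIF removal. With LIF it stood at 98.7 and 37.1 FPKM in knockout cells and 342 in wild type cells. The level went with the knockout number in both media. Transcript thus remained in every knockout library; which stretch was deleted is not stated.

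LIF acts through a receptor of LIFR and gp130 chains, JAK kinases and the transcription factor STAT3 to hold mouse ESCs in self-renewal, and ESCs that lose it leave the naive state. The 9 genes are not known as parts of that circuit. Most are known from differentiated tissues such as muscle, nerve, kidney, liver and squamous epithelium. The cells carried ESC markers (Pou5f1, Sox2, Nanog, Zfp42, Esrrb, Dppa5a and Tdgf1), whose FPKM summed to 2849 and 3539 in knockout cells and 3827 in wild type cells after LIF removal, against 6285 and 6295 in knockout cells and 8925 in wild type cells with LIF. This sum was lower after LIF removal in each genotype and lower in knockout cells in each medium, and its part in the differences of the 9 genes was not tested. With LIF most of its gap between genotypes was Dppa5a, at 4062 and 4115 FPKM in knockout cells and 6460 in wild type cells. On LIF removal 6 of the 7 markers fell and Tdgf1 gave 0.22 (limma adjusted p = 0.256). Between genotypes none of the 7 passed, and Nanog (0.12), Zfp42 (0.09) and Tdgf1 (0.06) lay above 0. In bulk samples, fewer cells of a type and less RNA per cell cannot be told apart.

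Most markers of the tissues where these genes are known were low. Of 7 skeletal muscle markers, 5 were under 1 FPKM in every library, and Mymk, the partner of Mymx in myoblast fusion, was listed at 0 throughout. The muscle sum was 7.32 and 28.3 FPKM in knockout cells and 2.72 in wild type cells after LIF removal, against 2.87 and 6.06 in knockout cells and 0.733 in wild type cells with LIF, so it was not higher where Mymx was high. After LIF removal most of this sum was 1 gene, Acta1, at 6.20 and 27.0 FPKM in knockout cells and 2.42 in wild type cells. With LIF Acta1 stood at 0.352 and 4.08 FPKM in knockout cells and 0.189 in wild type cells. Of 5 podocyte markers, 3 were under 1 FPKM, and the sum of all 5, mostly Podxl, was 34.0 and 43.0 FPKM in knockout cells and 60.5 in wild type cells after LIF removal, against 17.0 and 22.6 in knockout cells and 12.5 in wild type cells with LIF. Of 5 hepatocyte markers, all were under 1 FPKM and Alb, Afp and Serpina1a were at 0. Summed levels over the 6 libraries were 2.92 to 4.89 FPKM for Schwann cell and oligodendrocyte markers, 9.13 to 12.7 for neuron, 1.38 to 2.41 for keratinocyte, 10.01 to 16.6 for lymphocyte and 4.11 to 9.30 for fibroblast markers.

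With LIF, 8 of the 9 genes were lower in both knockout libraries than in the wild type library, at a mean of between 25.7% (Pltp) and 72.7% (Dlgap3) of its FPKM. Such an order was seen in 42.9% of all tested genes. The exception was Mt4, which was present in knockout cells and listed at 0 in wild type cells. After LIF removal, 5 of the 9 genes were lower in both knockout libraries than in the wild type library (38.9% of all tested genes). These were Septin1, Fam25c, Pltp, Mt4 and Nphs1, while Mymx and Gjb1 were higher in both knockout libraries.

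**Figure D1:**
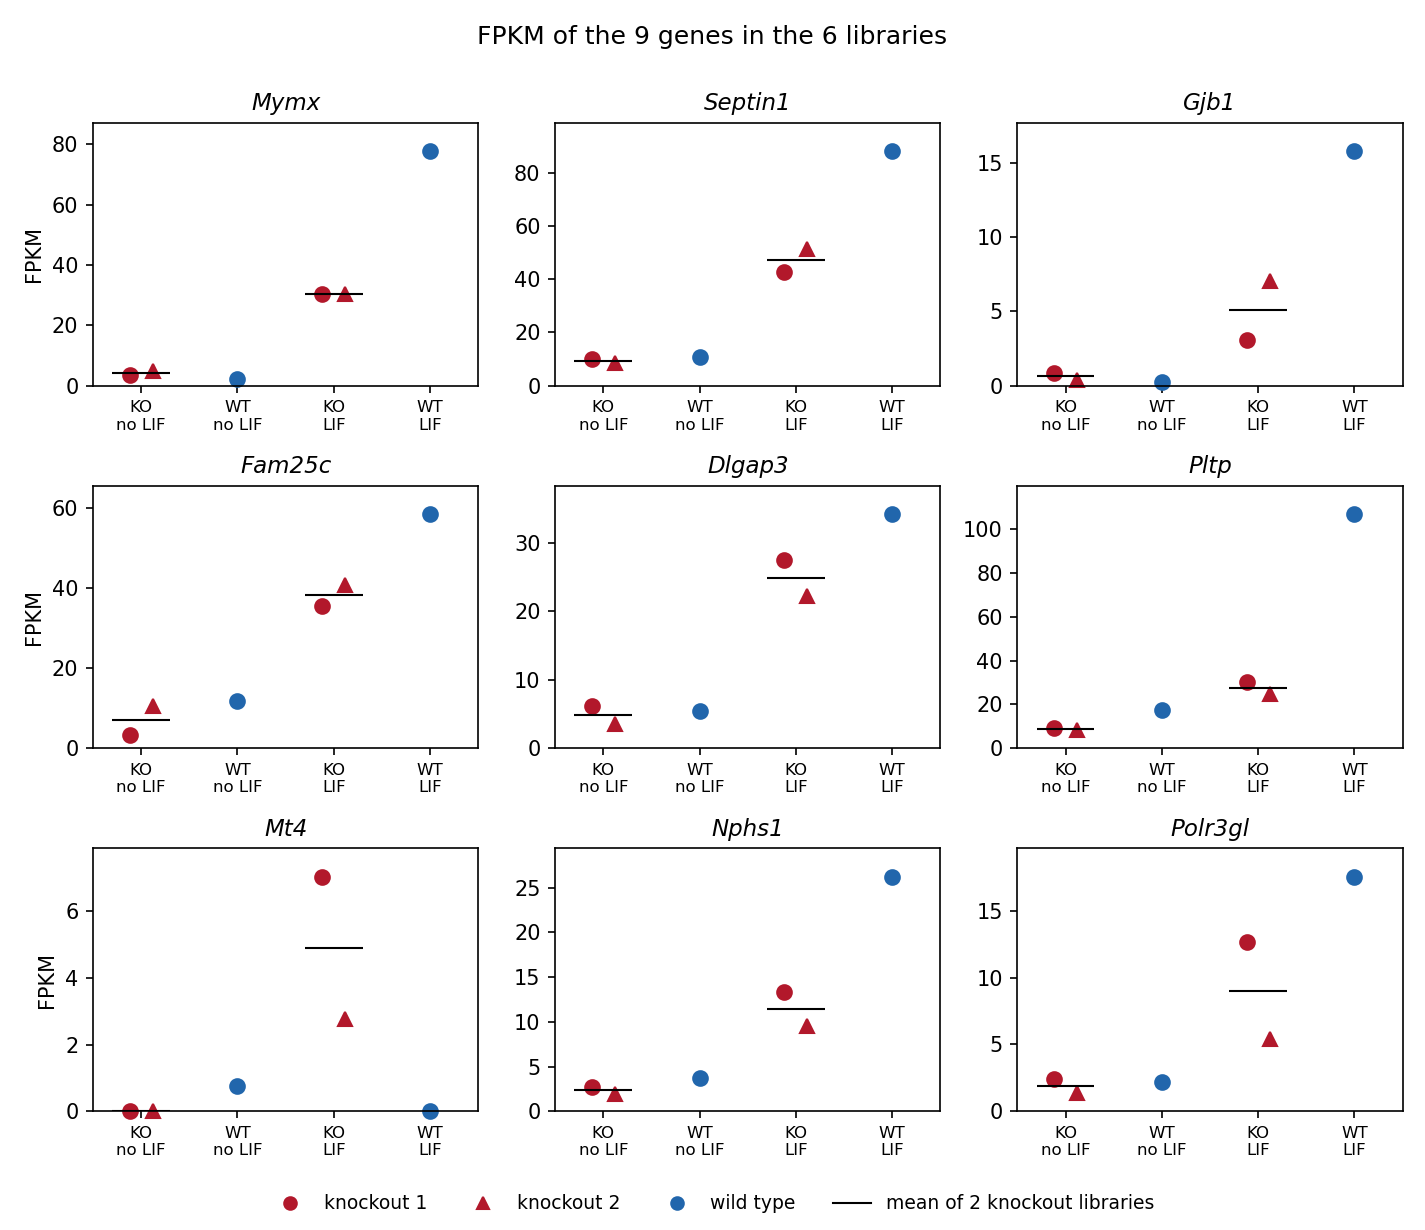
FPKM (vertical axes, linear, each gene on its own scale) of the 9 genes in knockout and wild type cells after LIF removal (no LIF) and with LIF. Points are single libraries and the line is the mean of 2 knockout libraries; apart from Mt4, the wild type library with LIF is the highest point in every panel.

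Mymx encodes myomixer, a small membrane protein that completes the fusion of myoblasts (chromosome 17, 45600961 to 45602196, minus strand; positions are RefSeq on GRCm38, which is mm10). It stood at 3.54 and 4.66 FPKM in knockout cells and 2.25 in wild type cells after LIF removal, against 30.2 and 30.3 in knockout cells and 77.8 in wild type cells with LIF. The media did not overlap in either genotype, and knockout cells kept 13.6% of their level with LIF while wild type cells kept 2.89%. This was the gene with the largest difference on LIF removal in wild type cells (-4.60 on the scale of log2(FPKM + 1)), and it ranked 2 in knockout cells (-2.62). Knockout cells were thus lower than wild type cells with LIF and higher after its removal.

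Gjb1 encodes connexin 32, a gap junction protein of hepatocytes and myelinating Schwann cells (chromosome X, 101376376 to 101385629, plus strand). Its levels were 0.860 and 0.362 FPKM in knockout cells and 0.228 in wild type cells after LIF removal, against 3.08 and 7.08 in knockout cells and 15.9 in wild type cells with LIF. The knockout libraries differed among themselves: the difference on LIF removal was -1.13 in number 1, -2.57 in number 2 and -3.78 in wild type cells. Values under 1 FPKM are compressed by the pseudocount of 1, and with 0.1 these differences grow to -2.84 in knockout and -5.61 in wild type cells.

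Septin1 belongs to the septins, GTP-binding proteins that form filaments at membranes and in dividing cells (chromosome 7, 127212709 to 127232985, minus strand). In knockout cells it stood at 9.99 and 8.40 FPKM and in wild type cells at 10.9 after LIF removal, against 42.9 and 51.4 in knockout cells and 88.4 in wild type cells with LIF. All 3 libraries without LIF lay close together, well below the 3 with LIF. Its profile was the closest to the others, with a Pearson r of 0.988 over the 6 libraries against the mean of the other 8 scaled profiles, which were chosen for the same difference.

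Fam25c (chromosome 14, 34351882 to 34358339, minus strand) had 3.32 and 10.7 FPKM in knockout cells and 11.9 in wild type cells after LIF removal, against 35.6 and 40.9 in knockout cells and 58.7 in wild type cells with LIF. Knockout library 1 was well below the other libraries without LIF. The mean difference on LIF removal was larger in knockout cells (-2.46) than in wild type cells (-2.20), which held for no other gene present in wild type cells with LIF. It was -3.08 in number 1 and -1.84 in number 2, so it was larger than in wild type cells in number 1 only.

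Dlgap3 encodes a scaffold protein of the postsynaptic density (chromosome 4, 127168305 to 127237022, plus strand). It stood at 6.26 and 3.62 FPKM in knockout cells and 5.45 in wild type cells after LIF removal, against 27.5 and 22.3 in knockout cells and 34.3 in wild type cells with LIF. The genotypes overlapped after LIF removal, and the difference was -2.15 in knockout and -2.45 in wild type cells. Here the level of knockout cells with LIF was nearest to wild type, at 80.3% in number 1 and 65.0% in number 2.

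Pltp, the phospholipid transfer protein of plasma lipoproteins and a target of the liver X receptors (chromosome 2, 164839518 to 164857708, minus strand), was the highest of the 9 in wild type cells with LIF. It stood at 9.39 and 8.33 FPKM in knockout cells and 17.7 in wild type cells after LIF removal, against 30.3 and 24.6 in knockout cells and 107 in wild type cells with LIF. Both knockout libraries lay below wild type cells in each medium, at 50.2% on average after LIF removal and 25.7% with LIF. Knockout cells kept 32.3% of their level on LIF removal and wild type cells 16.5%. Its last 1515 bases overlap Ctsa on the other strand, and whether counting used strand is not given in the sources used here.

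Nphs1 encodes nephrin, an adhesion protein of the slit diaphragm between kidney podocytes (chromosome 7, 30458207 to 30488623, plus strand). It stood at 2.69 and 1.98 FPKM in knockout cells and 3.76 in wild type cells after LIF removal, against 13.4 and 9.498 in knockout cells and 26.2 in wild type cells with LIF. In each medium both knockout libraries lay below wild type cells. The difference on LIF removal was -1.89 in knockout and -2.52 in wild type cells. An antisense gene, Nphs1os, lies within it.

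Polr3gl encodes a subunit of RNA polymerase III, the enzyme that makes transfer RNA and other small RNAs, and its paralog Polr3g takes the same place in a second form of the enzyme (Polr3gl, chromosome 3, 96577872 to 96594181, minus strand). It stood at 2.39 and 1.38 FPKM in knockout cells and 2.22 in wild type cells after LIF removal, against 12.7 and 5.38 in knockout cells and 17.6 in wild type cells with LIF. Knockout library 1 kept 72.2% of the wild type level with LIF and library 2 kept 30.7%. The genotypes overlapped after LIF removal.

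Mt4 is a metallothionein, a small cysteine-rich metal-binding protein, known from stratified squamous epithelium (chromosome 8, 94137204 to 94139031, plus strand). It was listed at 0 in both knockout libraries and at 0.765 FPKM in wild type cells after LIF removal, against 7.05 and 2.76 FPKM in the knockout libraries and 0 in the wild type library with LIF. Wild type cells therefore do not show it as a LIF-dependent gene. An exact 0 in these files may be a failed estimate, so no fold is given. The mean of Mt4 over the 6 libraries, 1.76 FPKM, came almost wholly from the knockout libraries with LIF. Without knockout library 1 with LIF it was below the filter and was not tested. Genes of chromosome 8 as a whole were lower in knockout library 2 than in library 1 with LIF (median difference -0.44 over 644 genes). Against wild type cells the median was 0.07 in number 1 and -0.35 in number 2 with LIF. After LIF removal it was -0.05 in number 1 and -0.40 in number 2. The part of this in the lower Mt4 value of library 2 with LIF was not tested.

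**Figure D2:**
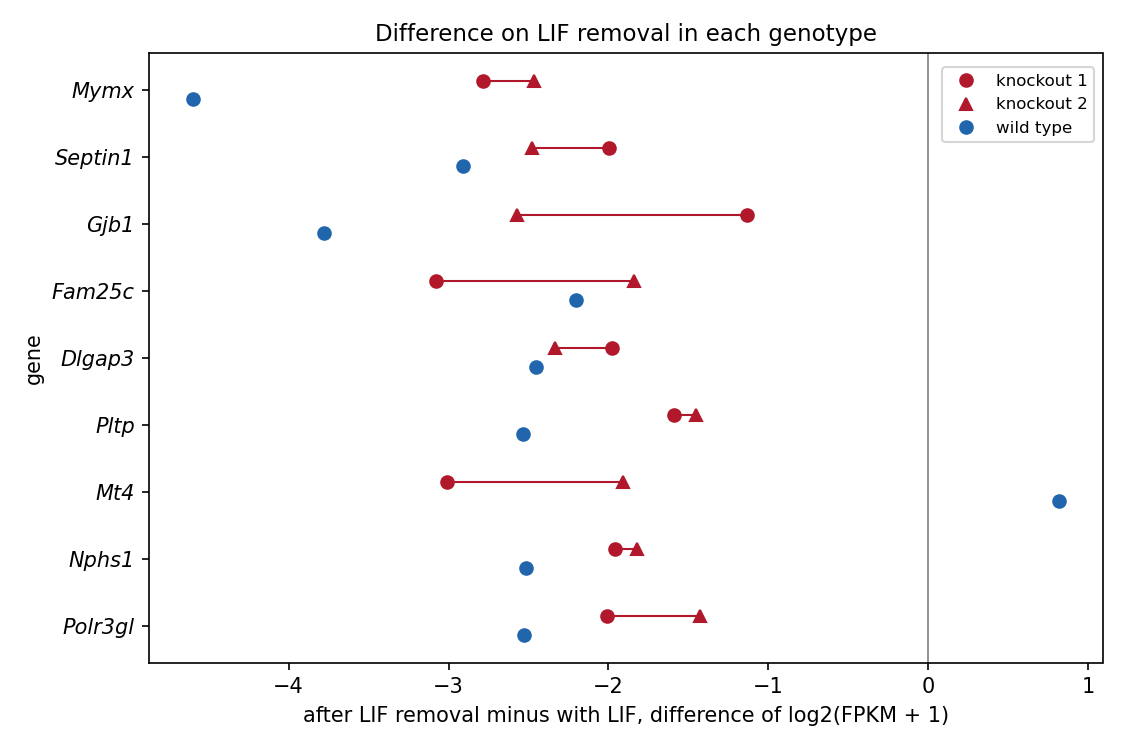
Difference on LIF removal (horizontal axis, log2(FPKM + 1) after LIF removal minus with LIF) of each gene in knockout numbers 1 and 2, joined by a line, and in the single wild type pair. All 9 genes lie left of 0 in both knockout numbers, and Mt4 lies at 0.82 in wild type cells.

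The median difference on LIF removal was -2.15 in knockout cells and -2.53 in wild type cells, against -0.02 and -0.04 over all tested genes. A difference of -1 or lower was seen in all 9 genes in knockout cells, where 2.7% of tested genes had one, and in 8 genes in wild type cells, where 4.56% had one. These counts follow from how the genes were picked. The difference was smaller in knockout than in wild type cells for 7 of the 8 genes that were lower in both. Among all 211 genes with a difference of -1 or lower in both genotypes, 66.4% had the smaller one in knockout cells. Whether the responses differ was not tested, because the genes were chosen by them. The wild type library with LIF also entered that choice, so its high values in the comparisons of genotype below are not independent of it.

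Knockout against wild type over both media was the comparison with the most libraries, 4 against 2. Pltp and Nphs1 fell in knockout cells, and the other 7 genes did not pass. Pltp had a log2 difference of -1.43 (SE 0.22, limma adjusted p = 0.0115) and was lower in 4 of 4 knockout libraries, and Nphs1 gave -0.84 (SE 0.21, adjusted p = 0.0436), also lower in 4 of 4. In this comparison 4.67% of all tested genes were called lower, 5.79% higher and 10.5% in all. At an unadjusted p under 0.05 there were 3 of the 9, all lower (Pltp, Nphs1 and Septin1), where 27.7% of all tested genes had such a p and 14.4% were lower. Septin1 had -0.56 (adjusted p = 0.0812), Fam25c -0.74 (0.200), Polr3gl -0.59 (0.298), Gjb1 -0.59 (0.439), Dlgap3 -0.30 (0.374), Mymx -0.35 (0.597) and Mt4 0.82 (adjusted p = 0.465, against a group with a 0). The median of the 9 was -0.59, against -0.03 over all tested genes.

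Both calls rest on few libraries. Pltp was not called without the wild type library with LIF (adjusted p = 0.148) or without the one after LIF removal (0.0658), where only 1 medium is compared. Nphs1 was not called without either of these (0.434 and 0.127), nor without knockout library 1 with LIF (0.0622), knockout library 2 with LIF (0.0788) or knockout library 2 after LIF removal (adjusted p = 0.0753).

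With LIF alone none of the 9 genes passed limma's adjusted threshold, as 0.0424% of all genes did. The fitted differences were -1.93 for Pltp (SE 0.20, adjusted p = 0.0615), -1.55 for Gjb1 (SE 0.44, 0.162), -1.33 for Mymx (SE 0.21, 0.0989), -1.15 for Nphs1 (SE 0.27, 0.126), -0.99 for Polr3gl (SE 0.46, 0.341), -0.90 for Septin1 (SE 0.20, 0.116), -0.61 for Fam25c (SE 0.52, 0.604) and -0.45 for Dlgap3 (SE 0.30, adjusted p = 0.511). At an unadjusted p under 0.05 there were 6 of the 9, 5 of them lower (Mymx, Septin1, Gjb1, Pltp and Nphs1) and Mt4 higher, where 16.7% of all tested genes had such a p and 8.52% were lower. Mt4 passed the filter on mean FPKM only through the knockout libraries with LIF, the group where it is high. Its place among these genes is therefore not an independent result. Each value sets 2 knockout libraries against 1 wild type library, whose spread is assumed to be that of the knockout libraries. Pltp passed without knockout library 1 with LIF (-2.08, adjusted p = 0.0382).

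After LIF removal none of the 9 passed either, as 0.0594% of all genes did, and 2 had an unadjusted p under 0.05, where 15.5% of all tested genes had one and 7.09% were lower. These were Pltp (-0.92, SE 0.20, limma adjusted p = 0.147) and Mymx (0.64, SE 0.21, adjusted p = 0.232). Gjb1 gave 0.37 (SE 0.44) and the remaining 6 genes gave -0.16 to -0.86. The median of the 9 was -0.22 after LIF removal and -0.99 with LIF.

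**Figure D3:**
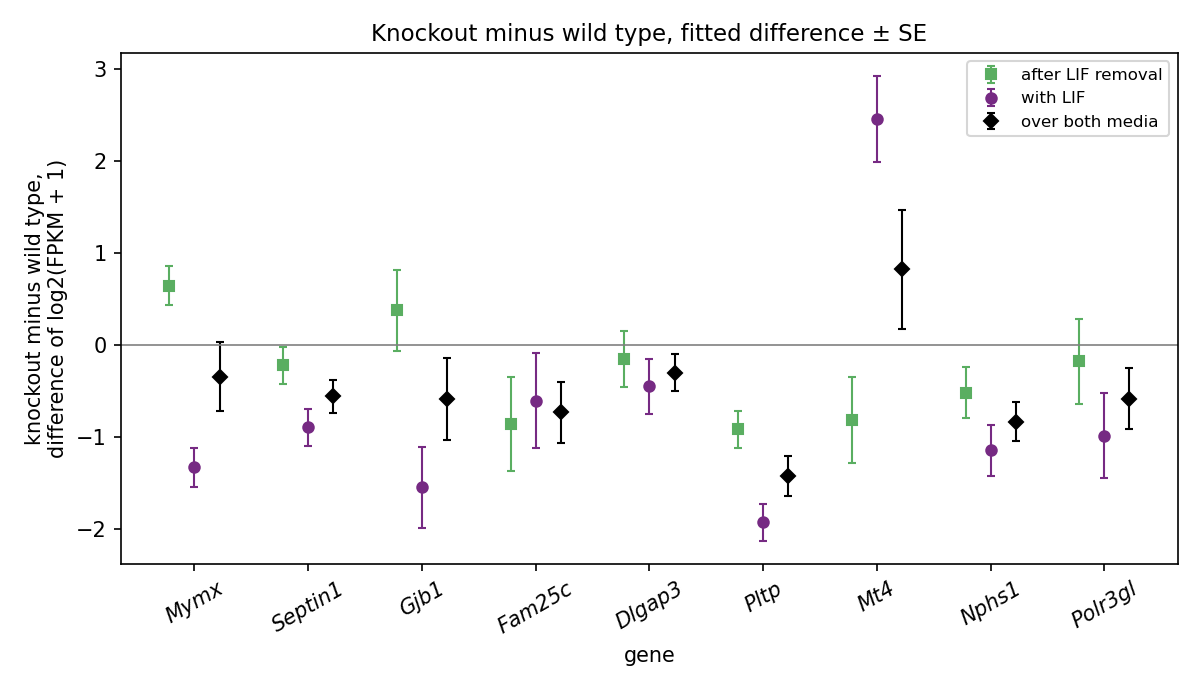
Knockout minus wild type (vertical axis, fitted difference of log2(FPKM + 1) with its SE from limma) for each gene after LIF removal, with LIF and over both media. Pltp is below 0 in all 3 comparisons (-0.92, -1.93 and -1.43), and Mymx and Gjb1 are above 0 after LIF removal and below 0 with LIF.

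Promoter sequences (RefSeq, GRCm38.p6) were matched for 7 of the 9 genes, with 10 start sites in all, 4 of them for Gjb1. The 250 bases before each start were searched on both strands for TTCNNNGAA (the STAT motif), AAGGTCA (bound by estrogen-related receptors), ATTTGCAT (the octamer bound by POU factors), GGGNGTGG (KLF factors) and TGCNCNC (the core of the metal response element); the motifs may overlap each other. The STAT and octamer letters were in none of the 10 windows, where 7.02% and 1.60% of all 32851 promoters hold them. The estrogen-related receptor letters were in 1 window (4.08% of all) and the KLF letters in 1 (15.9%), both of Gjb1, and the metal response core in 5 (44.4%). A match is only a run of letters, and its absence from this window says nothing of the factors. Shown are the promoters of Pltp and Nphs1, the genes called between genotypes, the Gjb1 start with the estrogen-related receptor letters, and Mt4, whose window holds 4 metal response cores (at least 4 are in 1.28% of all promoters). Each is written 5′ to 3′ up to the base before the start, with every match of the 5 motifs in capitals. The Nphs1 and Gjb1 windows precede starts that lie inside the gene spans given above, not the first base of the gene. Positions are chr2:164857709-164857958 (minus strand), chr7:30459808-30460057, chrX:101381868-101382117 and chr8:94136954-94137203 (plus strand).
Pltp: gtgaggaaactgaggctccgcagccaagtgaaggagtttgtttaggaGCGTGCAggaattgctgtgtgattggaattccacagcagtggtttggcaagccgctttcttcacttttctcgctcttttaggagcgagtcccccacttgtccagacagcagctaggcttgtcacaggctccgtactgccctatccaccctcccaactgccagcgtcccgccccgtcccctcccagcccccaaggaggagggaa
Nphs1: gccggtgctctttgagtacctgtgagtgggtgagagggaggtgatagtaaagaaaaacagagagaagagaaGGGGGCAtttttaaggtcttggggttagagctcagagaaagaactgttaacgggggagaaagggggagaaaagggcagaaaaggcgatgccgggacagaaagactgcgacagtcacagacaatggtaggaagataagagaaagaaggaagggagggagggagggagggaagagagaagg
Gjb1: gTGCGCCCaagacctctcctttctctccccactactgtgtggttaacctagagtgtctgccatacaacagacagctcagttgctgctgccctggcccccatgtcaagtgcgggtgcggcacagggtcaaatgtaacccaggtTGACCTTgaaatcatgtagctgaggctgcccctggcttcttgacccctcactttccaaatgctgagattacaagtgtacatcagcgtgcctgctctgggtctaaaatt
Mt4: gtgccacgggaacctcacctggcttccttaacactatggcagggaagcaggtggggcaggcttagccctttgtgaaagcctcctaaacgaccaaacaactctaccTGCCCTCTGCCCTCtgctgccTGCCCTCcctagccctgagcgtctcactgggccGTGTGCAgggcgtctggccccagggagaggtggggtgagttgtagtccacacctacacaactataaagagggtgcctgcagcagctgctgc
In Pltp and Nphs1 the capitals are a single metal response core each. In Gjb1 they are such a core near the left end and the estrogen-related receptor letters on the minus strand, 108 bases before the start. In Mt4 the cores lie 145, 138, 124 and 91 bases before the start.

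Genes beside the 9 were often lower after LIF removal as well. The nearest 2 protein-coding genes of the table on each side gave 36 neighbours, of which 32 could be tested over both genotypes. On LIF removal 12 of the 32 fell and none rose, where 12.7% of all tested genes were called lower, 8.73% higher and 21.4% in all, and their median was -0.36 against -0.03 over all tested genes. Neighbours were not chosen by their values, but reads of overlapping genes can be shared, which was not tested.

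Around Nphs1 the drop ran over 3 genes in a row. Kirrel2, a nephrin relative of the slit diaphragm 692 bases from Nphs1, fell (log2 difference -1.87, SE 0.17, limma adjusted p = 0.00110). It stood at 3.19 and 2.03 FPKM in knockout cells and 3.59 in wild type cells after LIF removal, against 13.6 and 11.6 in knockout cells and 14.7 in wild type cells with LIF. Aplp1, an amyloid precursor-like protein next to it, fell by 1.75 (SE 0.10, adjusted p = 0.000620) and was lower in knockout than in wild type cells over both media (-0.62, adjusted p = 0.0166). Kirrel2 did not pass between genotypes (-0.29, adjusted p = 0.333). Prodh2 on the far side of Nphs1 had too little signal to test, and Arhgap33 gave -0.17.

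Slc29a1, an equilibrative nucleoside transporter 1343 bases from Mymx, fell by 1.46 on LIF removal (SE 0.12, limma adjusted p = 0.00105). It stood at 42.4 and 36.4 FPKM in knockout cells and 34.0 in wild type cells after LIF removal, against 94.7 and 106 in knockout cells and 115 in wild type cells with LIF. Between genotypes over both media Slc29a1 gave -0.0015 and Mymx gave -0.35 (adjusted p = 0.597), and neither passed. With LIF alone Mymx was at 38.9% of the wild type level in knockout cells. Mt3, the metallothionein next to Mt4 and 13576 bases away, fell by 1.98 (SE 0.27, adjusted p = 0.00311). Unlike Mt4 it was present in every library, at 2.37 and 1.10 FPKM in knockout cells and 1.22 in wild type cells after LIF removal, against 13.7 and 7.04 in knockout cells and 7.16 in wild type cells with LIF.

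Txnip, a thioredoxin-binding protein beside Polr3gl, fell by 1.74 (SE 0.33, limma adjusted p = 0.0104), and Zmym3, a zinc finger gene beside Gjb1, by 1.38 (SE 0.13, adjusted p = 0.00114). On the Septin1 side, Mylpf, a fast muscle myosin light chain gene that overlaps it, fell by 1.29 (adjusted p = 0.0106) and Tbc1d10b by 0.70 (adjusted p = 0.00407). Near Fam25c, Sncg (gamma-synuclein) fell by 1.17 (adjusted p = 0.0381) and Mmrn2 by 0.90 (adjusted p = 0.00780). Beside Pltp, Neurl2 fell by 0.71 (adjusted p = 0.0411) and Pcif1 by 0.66 (adjusted p = 0.0347), and no neighbour of Dlgap3 passed. Of these 12 calls, those of Kirrel2, Aplp1, Slc29a1, Mt3, Zmym3 and Tbc1d10b held with each of the 6 libraries left out in turn. Txnip, Mylpf, Mmrn2, Sncg, Neurl2 and Pcif1 lost theirs without either wild type library, at adjusted p up to 0.210, and Sncg, Neurl2 and Pcif1 lost theirs in 5 of the 6 such fits. Between genotypes, Glud1 beside Fam25c (-0.41, adjusted p = 0.0366) and Aplp1 were lower and Mmrn2 higher (0.84, adjusted p = 0.0226) in knockout cells. Each was no longer called without either wild type library. Mmrn2 was also lost without knockout library 2 with LIF. Glud1 was lost in all 6 such fits, under quantile normalization and without the intensity trend.

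**Figure D4:**
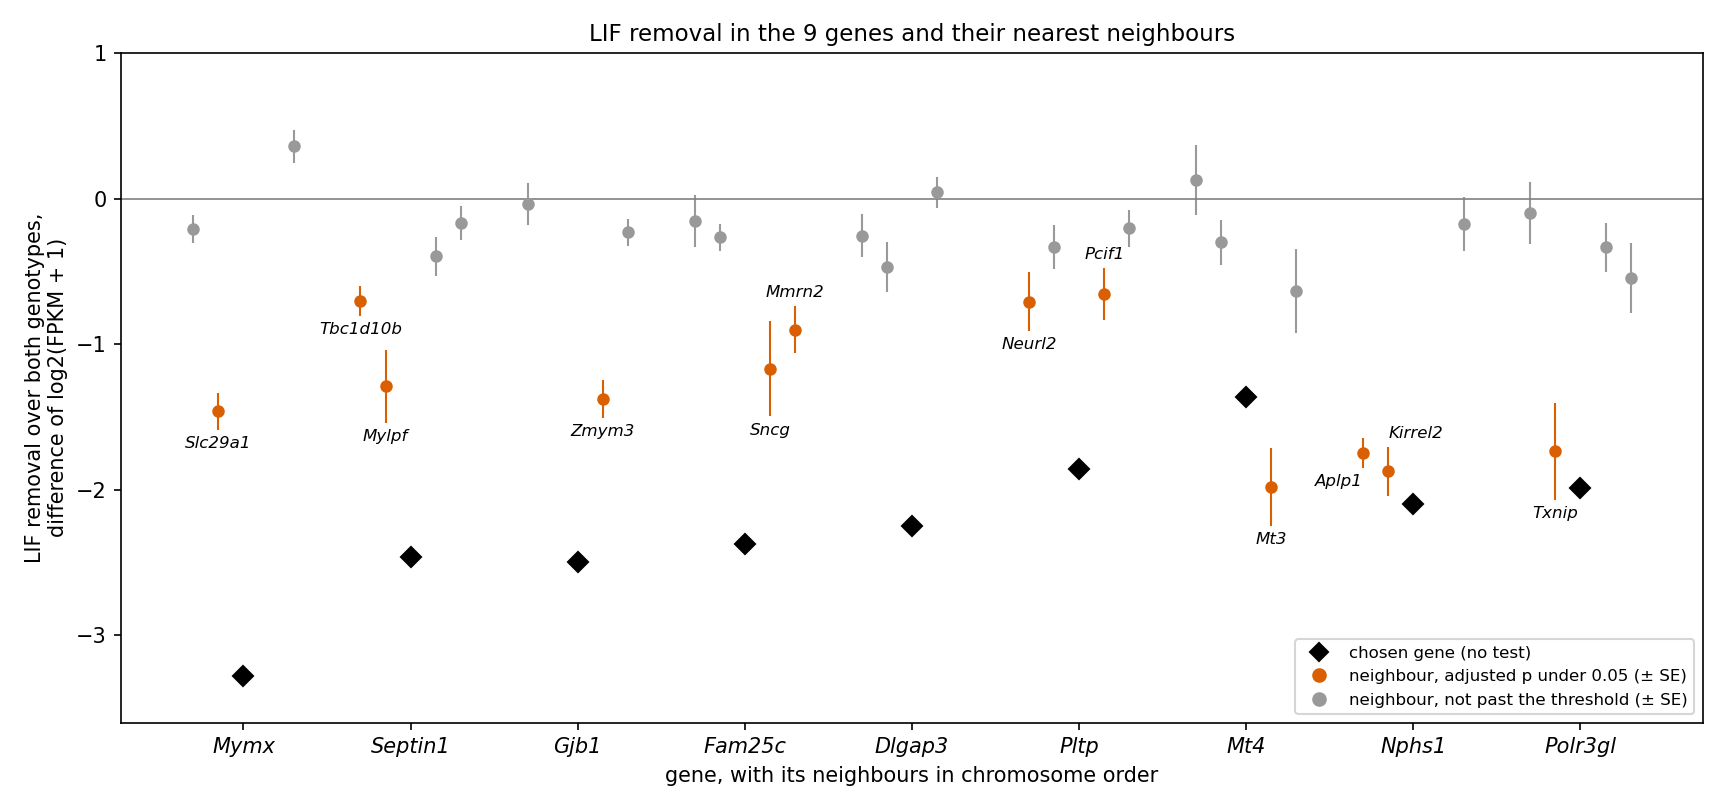
Difference on LIF removal over both genotypes (vertical axis, log2(FPKM + 1), with SE from limma) of the 9 genes (diamonds, no test) and of their testable neighbours, drawn in chromosome order. The 12 named neighbours passed the adjusted threshold and all lie below 0, from -0.66 for Pcif1 to -1.98 for Mt3.

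Related genes mostly did not share the pattern. Among 17 other subunits of RNA polymerase III, 1 fell on LIF removal and none rose (Polr2e, a subunit shared by all 3 polymerases, -0.64, limma adjusted p = 0.00671). The paralog Polr3g stood at 43.2 and 40.6 FPKM in knockout cells and 36.5 in wild type cells after LIF removal, against 39.9 and 45.0 in knockout cells and 37.5 in wild type cells with LIF. Its difference was -0.02 (SE 0.10, adjusted p = 0.889), with a sign that turned under quantile normalization and median ratio scaling. Between genotypes Polr3d gave -0.57 (adjusted p = 0.0461) and Polr2k 1.01 (adjusted p = 0.0205), a call each in opposite directions. Neither held without either wild type library. The Polr3d call was lost with each of the 6 libraries left out in turn. It was also lost under quantile normalization, median ratio scaling and without the intensity trend. On the scale of FPKM, which is per length, Polr3g was thus above Polr3gl in every library.

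Of 9 tested septins other than Septin1, 4 rose on LIF removal, 1 fell and 4 did not pass. The rises were Septin4 (1.02, limma adjusted p = 0.0238), Septin10 (0.60, 0.0273), Septin11 (0.45, 0.0128) and Septin7 (0.42, adjusted p = 0.0226), and the fall was Septin9 (-0.34, adjusted p = 0.0441). None of these 5 held with each library left out in turn. The Septin9 call was lost in all 6 such fits, and also under quantile normalization, median ratio scaling and without the intensity trend. Septin9 was named after its values were seen. Septin2, the most abundant, gave 0.07 (adjusted p = 0.690). No septin passed between genotypes.

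Among 5 tested connexins, Gja1 (connexin 43), the main gap junction gene of ESCs, rose on LIF removal. Gja1 stood at 254 and 274 FPKM in knockout cells and 228 in wild type cells after LIF removal, against 122 and 151 in knockout cells and 106 in wild type cells with LIF (1.003, SE 0.11, limma adjusted p = 0.00159). Gjc1, another connexin, fell (-0.49, adjusted p = 0.0201), a call that was lost in 4 of 6 fits with a library left out, including those without a wild type library. None of the 5 passed between genotypes.

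Of 9 tested genes of lipoprotein transfer and of liver X receptor targets, the list that fits Pltp, 4 fell on LIF removal and none rose, where 12.7% of all tested genes were called lower. In knockout cells 3 of them were lower and none higher, where 4.67% of all tested genes were called lower. Apoc1, an apolipoprotein, stood at 10.2 and 16.5 FPKM in knockout cells and 19.2 in wild type cells after LIF removal, against 29.5 and 27.6 in knockout cells and 58.6 in wild type cells with LIF. It fell by 1.24 on LIF removal (limma adjusted p = 0.00450) and by 0.77 in knockout cells (adjusted p = 0.0442). Apoe, the apolipoprotein beside it, gave -1.05 (adjusted p = 0.00949) and -0.79 (adjusted p = 0.0485), and the sterol transporter Abcg1 gave -0.87 (adjusted p = 0.00960) and -0.78 (adjusted p = 0.0309). The liver X receptor Nr1h2 fell on LIF removal (-0.52, adjusted p = 0.0378) and gave -0.25 between genotypes (adjusted p = 0.333). On LIF removal only Apoc1 kept its call with each library left out. The 3 genotype calls were each lost in 5 of 6 fits with a library left out, including those without a wild type library, and that of Apoe also under quantile normalization and median ratio scaling.

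Of 6 tested genes of metallothionein and zinc response, Mt3 alone passed, and Mt1 and Mt2, the abundant metallothioneins, gave -0.42 (limma adjusted p = 0.368) and -0.63 (adjusted p = 0.153) on LIF removal. Of 8 tested slit diaphragm genes, Kirrel2 fell and Podxl (podocalyxin, 1.51, adjusted p = 0.00562) and Tjp1 (0.61, adjusted p = 0.00960) rose. None of 6 tested postsynaptic scaffold genes passed on LIF removal, and Dlgap4 was lower in knockout cells (-0.71, adjusted p = 0.0164). In the myoblast list only the adhesion molecules Jam2 (-0.92, adjusted p = 0.0357) and Jam3 (0.64, adjusted p = 0.0265) were tested with a call on LIF removal, in opposite directions, and Jam3 was higher in knockout cells (0.82, adjusted p = 0.0246). Both calls on LIF removal were lost in 4 of 6 fits with a library left out, and that of Jam2 also without the intensity trend. The Tjp1 call and the genotype calls of Dlgap4 and Jam3 were lost without either wild type library. Myod1, Myog and Myf5 were under 1 FPKM. Fam25a was not analysed here.

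Of 9 LIF response genes, 6 fell on LIF removal and none rose, where 12.7% of all tested genes were called lower. The falls included Tfcp2l1 (-1.24, limma adjusted p = 0.00524), Pim1 (-0.88, 0.00581), Pim3 (-0.67, 0.00524) and Lifr (-0.86, adjusted p = 0.0124). Of the 6, only Tfcp2l1 and Pim3 kept this call with each library left out, and the others lost it without either wild type library. Over both media Pim1 (-0.89, adjusted p = 0.0147) and Pim3 (-0.88, adjusted p = 0.00928) were also lower in knockout cells, calls that were lost without either wild type library.

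The tested genes whose values were most like the mean scaled profile of the 9 over the 6 libraries were Twf2, Ung, Mybl2, Odf2, Capns1, Uqcrc1, Napsa and Lap3, with Pearson r of 0.996 to 0.999. These points share libraries and scaling, and 11785 genes were searched. Most moved less than the 9: Ung, a DNA glycosylase, stood at 51.3 and 52.3 FPKM in knockout cells and 55.5 in wild type cells after LIF removal, against 83.1 and 79.0 in knockout cells and 90.8 in wild type cells with LIF. Within the 9, r against the mean of the others was 0.884 to 0.988 for 8 genes and 0.376 for Mt4.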

How the data were processed

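RNA-seq of total RNA (paired-end reads, per the labels' protocols) gave 1 table of 6 libraries. The authors deposited FPKM per gene symbol, made with STAR and Cufflinks on mm10, per the submitters' processing notes; their versions and the annotation are not stated there. Steps of the low values put the other libraries at about 0.844 to 1.08 times the depth of the wild type library with LIF, a rough estimate carried by 12.2 to 15.5% of low genes (tolerance 0.01 on the log2 scale). Read numbers stay unknown, so no counting error is given. Gene symbols with close copies in the genome are uncertain.

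Values were analysed as log2(FPKM + 1), which understates changes of low genes. Genes averaging 1 FPKM or more were fitted with limma 3.58.1 in R 4.3.3 (empirical Bayes with an intensity trend, two-sided, Benjamini-Hochberg over all tested genes, threshold 0.05). Genotype and medium as added terms gave both average effects (3 residual degrees of freedom); 4 groups gave the genotype effect in each medium (2 residual degrees of freedom, all from knockout libraries). The scripts were tested on simulated data. The members and gene lists were chosen with earlier results of these data known. Named are all 9 members, neighbours past the threshold, up to 4 relatives per list past it by lowest p, a member's closest relative, and the 8 most alike profiles. Some results for related genes are not reported here.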

Additional observations from a re-analysis of the deposited data

Results flagged for a closer look

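Of the 9 genes, 3 moved in opposite directions in different groups, with every library on the same side within a group. The change of direction and the differences on LIF removal were not tested, since the genes were chosen by their response to LIF removal. The genotype differences within a medium were tested above and did not pass. Each difference rests on 1 wild type library per medium.

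On the scale of log2(FPKM + 1), Mymx was higher in both knockout libraries than in wild type cells after LIF removal (0.64) and lower in both with LIF (-1.33). Gjb1 gave 0.37 after LIF removal and -1.55 with LIF in the same comparison, and its levels without LIF were under 1 FPKM. Mt4 was lower on LIF removal in both knockout numbers (-2.46) and higher in wild type cells (0.82). Between genotypes Mt4 gave -0.82 after LIF removal and 2.46 with LIF. Its wild type value with LIF and both knockout values after LIF removal were listed at 0, so these are differences on a scale with a pseudocount and not folds.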

How the results depend on the processing

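The count of members called lower between genotypes over both media was 2 (Pltp and Nphs1). It stayed 2 with a pseudocount of 0.1, a minimum mean of 5 FPKM, quantile normalization and median ratio scaling. It was 0 without a filter on low values and 1 without the intensity trend, and 0 to 2 when a library was left out. With LIF alone the count was 0, and 1 with a minimum of 5 FPKM (Pltp). It was 0 to 1 with a library left out. With the knockout number as a replicate block, the counts were 3 over both media, 7 with LIF and 1 after LIF removal. Over all genes the calls between genotypes numbered 1232 over both media, and 335 without a filter, 2147 with the block, 583 without knockout library 2 with LIF, 7 when the wild type LIF library was dropped and 5 when the other wild type library was. The block moved them to 971 (5 otherwise) with LIF and 783 (7 otherwise) after LIF removal. The labels do not say that a number marks 1 clone; the number 2 minus number 1 differences of the 2 media correlated over genes with a Pearson r of 0.366. Without the wild type library with LIF, the difference over both media was 0.64 for Mymx, 0.37 for Gjb1 and -0.82 for Mt4; over all left-out libraries it spanned -1.33 to 0.64 for Mymx, -1.55 to 0.37 for Gjb1 and -0.82 to 2.46 for Mt4. Without the wild type library of a medium, genotype cannot be compared in it. The differences on LIF removal kept their sign throughout and moved beyond the spread with a pseudocount of 0.1, in 4 genes in knockout and 3 in wild type cells. In alternatives added after seeing the data, 12 of 35 calls on LIF removal of named relatives and neighbours, and 0 of 12 between genotypes, held with every library left out; the rest were lost without either wild type library. Polr3g changed sign on LIF removal with quantile normalization (0.066), median ratio scaling (0.0016) and without knockout library 2 with LIF (left-out range -0.074 to 0.023), and Septin2 without knockout library 1 with LIF (range -0.025 to 0.19). The causes were not tested.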
